A study of Mus musculus with 9 samples.

Results

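The genes described here carry out the housekeeping of astrocytes, the star-shaped glial cells that surround synapses and blood vessels in the brain. The 8 genes are Slc1a2, Slc1a3, Glul, Aqp4, Kcnj10, Atp1b2, Gja1 and Gjb6. They were chosen by function, as a list of gene symbols, among 33964 genes with an annotated transcript, and each is represented by the one of its transcripts with the highest mean count over the 9 samples. The samples were RNA from layers of the piriform (olfactory) cortex, dissected by laser capture from fresh-frozen brain sections, amplified and sequenced. There were 3 samples each of layer A, layer B and layer C, all from wild type C57BL/6 mice whose age is given in the labels as 8 weeks. The study's methods state an older age for the mice whose sections were dissected, and the labels' age is used here. The letters A, B and C are used as the labels give them, since no key ties them to the numbered layers. The labels do not say whether replicates came from separate animals, so the p-values measure the spread between these samples, which may be technical. Tissue of a layer holds all its cell types, and fewer astrocytes cannot be told apart from less of these RNAs per astrocyte.

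When a neuron fires, it releases glutamate and potassium into a narrow extracellular space. Astrocytes take up the glutamate through the transporters GLT-1 (Slc1a2) and GLAST (Slc1a3), and glutamine synthetase (Glul) converts it to glutamine, which returns to neurons. Potassium leaves the extracellular space through the inward rectifier Kir4.1 (Kcnj10) and the sodium-potassium pump, of which Atp1b2 encodes a beta subunit common in glia. Water moves through aquaporin-4 (Aqp4), which is concentrated in the endfeet that astrocytes place on blood vessels and on the brain surface. Connexin 43 (Gja1) and connexin 30 (Gjb6) form the gap junctions that join astrocytes into a network.

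All 8 genes were higher in layer A than B and than in layer C. The difference from layer B was largest for Aqp4. Against layer C Gja1 and Aqp4 had the highest values, 3.36 and 3.20 on the log2 scale, and their order turned without layer A replicate 2 or layer C replicate 2. The difference was smallest in both comparisons for Atp1b2. No gene of the 8 passed the test between layers B and C. Within each sample, the astrocyte transporter Slc1a2 was higher in layer A relative to the neuronal transporter Slc1a1.

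The counted transcript of Slc1a2 lies at chr2:102658659-102790784 on the plus strand of GRCm38 (mm10) and is 11595 bases long after splicing, in 11 exons. That of Slc1a3 lies at chr15:8634124-8710764 on the minus strand, and that of Glul at chr1:153899944-153909723 on the plus strand. Kcnj10 lies at chr1:172341210-172374085 on the plus strand. Gja1 lies at chr10:56377330-56390415 on the plus strand and Gjb6 at chr14:57123303-57133611 on the minus strand. These transcripts are annotated as protein coding. The counted transcript of Atp1b2, at chr11:69599741-69605942 on the minus strand, is annotated as a processed transcript, which has no coding sequence. Its mean count of 5499 was within 10% of that of the protein-coding transcript of the same gene, 5479, so reads of the pair cannot be assigned to one or the other.

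The 250 bases before the RefSeq start sites of the 8 genes were taken from a table made from the RefSeq annotation of GRCm38.p6. In it 6 of the 8 genes were matched (those of Aqp4 and Atp1b2 were not analysed here). Sequences of 3 are printed 5′ to 3′ on the strand of the gene, to set the glutamate transporter Slc1a3 beside both connexins. They are Slc1a3 at chr15:8710808-8711057 (minus strand), Gja1 at chr10:56377050-56377299 (plus strand) and Gjb6 at chr14:57133612-57133861 (minus strand). Capitals mark a match to the STAT motif TTCNNNGAA.
Slc1a3: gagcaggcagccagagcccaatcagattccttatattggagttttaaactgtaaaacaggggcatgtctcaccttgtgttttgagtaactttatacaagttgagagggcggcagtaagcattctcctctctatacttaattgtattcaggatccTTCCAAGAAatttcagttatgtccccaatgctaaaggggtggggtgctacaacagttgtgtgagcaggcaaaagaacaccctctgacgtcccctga
Gja1: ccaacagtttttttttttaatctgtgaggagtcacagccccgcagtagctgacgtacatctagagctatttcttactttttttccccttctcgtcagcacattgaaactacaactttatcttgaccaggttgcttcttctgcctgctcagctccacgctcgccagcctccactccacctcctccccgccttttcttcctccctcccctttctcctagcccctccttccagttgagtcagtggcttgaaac
Gjb6: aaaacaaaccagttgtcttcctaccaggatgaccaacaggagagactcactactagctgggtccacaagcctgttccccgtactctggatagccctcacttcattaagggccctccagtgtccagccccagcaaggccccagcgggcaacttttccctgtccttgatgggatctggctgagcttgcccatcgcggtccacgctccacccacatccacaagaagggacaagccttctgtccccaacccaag
The match in Slc1a3 is TTCCAAGAA and begins 96 bases before the start site. Among the 6 promoters it was the only match of the STAT motif, which 7.02% of 32851 RefSeq promoters of this length hold. The nuclear factor I motif TTGGCA was in 0 of the 6 and in 12.3% of all promoters. The SOX motif ACAAAG was likewise in 0 of the 6, and in 16.5% of all. Both strands were searched, and overlaps between motifs were not treated apart. A match is a match of letters only. The RefSeq start of Slc1a2 lies 47779 bases downstream of the start of its counted transcript, so its window does not border that transcript.

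The total count per sample ranged from 23104306 to 76471683. The 2 ribosomal RNAs of the mitochondrion took 55.3% to 70.2% of the counts in layer A, 12.8% to 28.1% in B and 20.5% to 57.1% in C. Levels are therefore given as normalized CPM, the usual depth-scaled read count, with the total of each sample rescaled by the trimmed mean of M-values (TMM), which sets the bulk of transcripts equal between samples. Layer B replicate 3 stood apart from the other samples of its layer: its log2 levels correlated with theirs at r = 0.913 and 0.904, and theirs with each other at r = 0.987. Within layer A such values were 0.933 to 0.940, and within layer C 0.934 to 0.972. Layer B replicate 3 was the highest layer B sample for all 8 genes. Leaving it out raised the fold of layer A over B for all 8 genes, most for Gjb6 and Glul. For each of the 8, leaving out some other sample lowered the fold. The lowest log2 fold changes were 2.88 for Slc1a3, 2.58 for Glul, 3.555 for Aqp4, 3.07 for Gja1 and 2.80 for Gjb6.

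**Figure D1:**
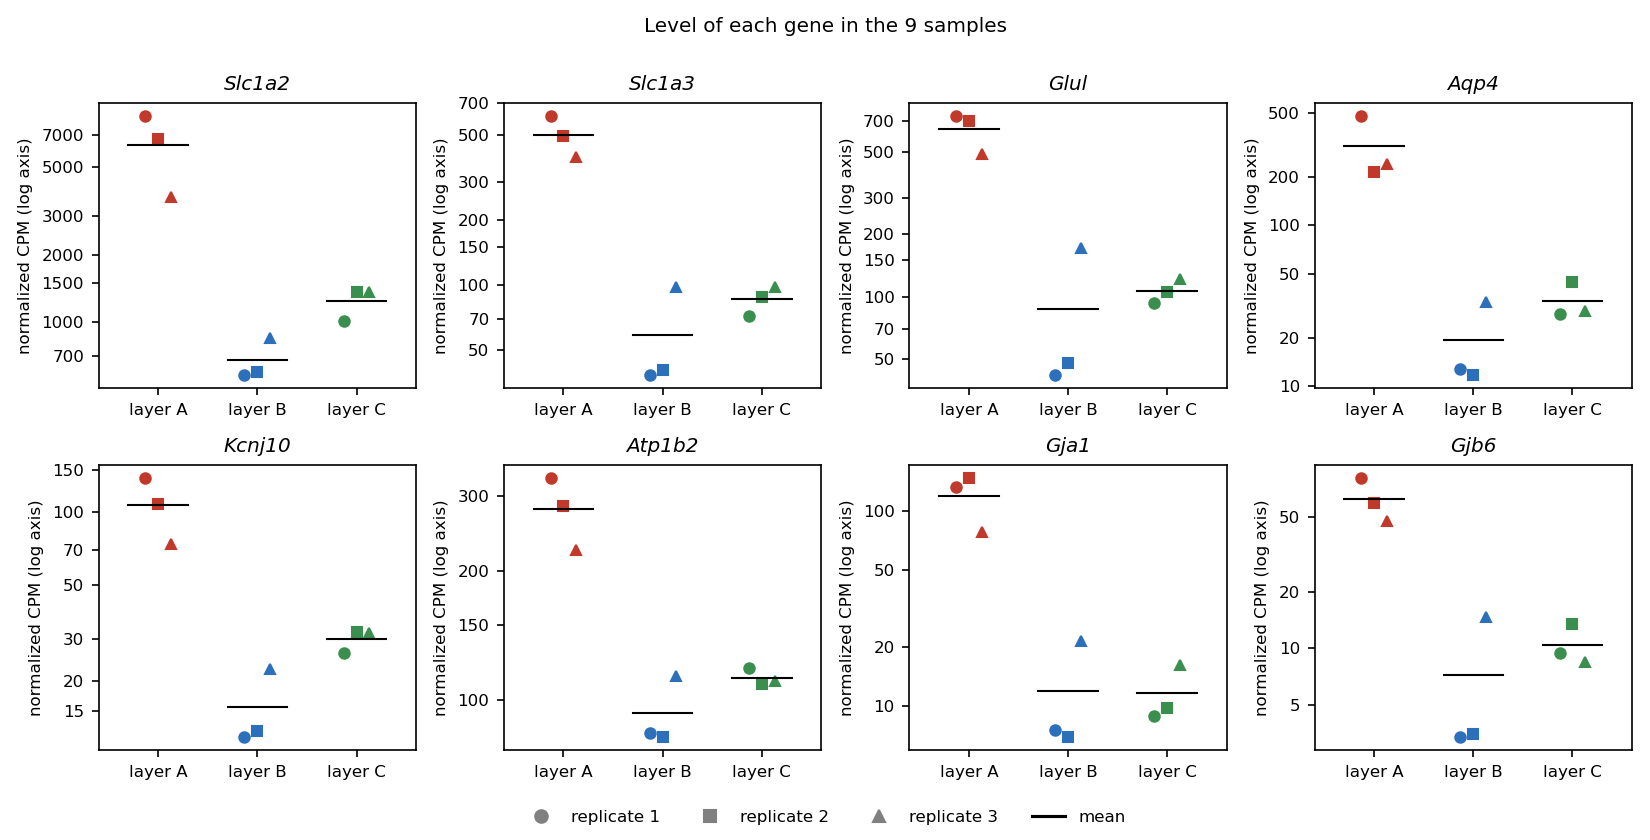
Normalized CPM of each of the 8 genes (log axis, a different range in each panel) in the 3 samples of layers A, B and C, with replicate numbers as symbols and the layer mean as a bar. For every gene the 3 layer A samples lie above the 6 others, and layer B replicate 3 is the highest of its layer.

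Glutamate uptake was led by Slc1a2. Its normalized CPM in layer A was 8545.5, 6708.9 and 3667.7 in replicates 1, 2 and 3. In layer B it was 573, 590 and 846, and in layer C 1013, 1358 and 1358. Every layer A sample lay above every other sample, and every layer B sample lay below every layer C sample. The means were 6307 ± 2464, 670 ± 153 and 1243 ± 199 (SD, n = 3 each). Slc1a2 was 9.42-fold higher in layer A than B (log2 fold change 3.24, SE 0.363, adjusted p = 0.000177, edgeR quasi-likelihood test with Benjamini-Hochberg adjustment). Against layer C it was 5.07-fold higher (log2 fold change 2.34, SE 0.35, adjusted p = 0.00205). Scaled by total counts, layer C replicate 2 lay within the layer B range.

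Slc1a3, the transporter of radial glia and of the cerebellum's Bergmann glia as well as of cortical astrocytes, followed the same pattern at a lower level. Its normalized CPM was 612, 490 and 394 in layer A, 38.2, 40.3 and 98.7 in B, and 72.2, 87.8 and 98.4 in C. Layer A stood above both other layers without overlap, while layer B replicate 3 was level with the highest layer C sample. The means were 499 ± 109, 59.1 ± 34.3 and 86.1 ± 13.2 (SD, n = 3 each). The log2 fold change was 3.08 (SE 0.388, edgeR adjusted p = 0.000239) against layer B and 2.53 (SE 0.379, edgeR adjusted p = 0.00205) against layer C. Without layer B replicate 3 the former was 3.72 (edgeR adjusted p = 2.43e-05).

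Glul, the enzyme that turns glutamate and ammonia into glutamine, was at a normalized CPM of 744, 699 and 490 in layer A. It was at 41.8, 48.1 and 172 in layer B and at 93.7, 106 and 122 in layer C. Layer B replicate 3 exceeded all layer C samples here, and the other layer B samples lay below all of them. Layer A was 7.38-fold above layer B (log2 fold change 2.88, SE 0.468, edgeR adjusted p = 0.000941) and 6.02-fold above layer C (log2 fold change 2.59, SE 0.463, edgeR adjusted p = 0.00393). Without layer B replicate 3 the log2 fold change of Glul against layer B was 3.90 (edgeR adjusted p = 2.1e-05).

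Aqp4, whose counted transcript is protein coding and lies at chr18:15389496-15403758 on the minus strand, had the largest difference from layer B of the 8 genes. Its normalized CPM in layer A was 479, 214 and 239. In layer B it was 12.8, 11.7 and 33.4, and in layer C 28.0, 44.3 and 29.3. Replicate 1 was the highest layer A sample, and all 3 stood above the layer B and C samples, which overlapped. The means were 311 ± 146, 19.3 ± 12.2 and 33.9 ± 9.08 (SD, n = 3 each). The fold was 16.1 against layer B (log2 fold change 4.01, SE 0.471, edgeR adjusted p = 2e-04) and 9.18 against layer C (log2 fold change 3.20, SE 0.454, edgeR adjusted p = 0.00177). The former rose to 4.72 on the log2 scale without layer B replicate 3 (edgeR adjusted p = 2.46e-05).

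The potassium channel Kcnj10 was at a normalized CPM of 139, 108 and 73.8 in layer A. It was at 11.7, 12.5 and 22.6 in layer B and at 26.2, 31.9 and 31.8 in layer C. The 3 layers did not overlap, in the order A, C, B. Layer A was 6.85-fold above layer B (log2 fold change 2.78, SE 0.35, edgeR adjusted p = 0.000239) and 3.56-fold above layer C (log2 fold change 1.83, SE 0.338, edgeR adjusted p = 0.00463). Scaled by total counts, without the TMM factors, the difference from layer C was 0.98 on the log2 scale and no longer passed (edgeR adjusted p = 0.125). Layer C replicate 2 then lay within the layer B range.

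Atp1b2, also known as the adhesion molecule on glia, differed least. Its normalized CPM was 331, 284 and 224 in layer A, 83.7, 81.9 and 114 in B, and 119, 109 and 111 in C. Layers B and C overlapped, with layer B replicate 3 inside the layer C range, and layer A stood above both. The means were 279 ± 53.5, 93.3 ± 18.2 and 113 ± 5.13 (SD, n = 3 each). The log2 fold change was 1.58 (SE 0.278, edgeR adjusted p = 0.00151) against layer B and 1.31 (SE 0.276, edgeR adjusted p = 0.00877) against layer C. Both calls were lost under scaling by total counts (log2 fold changes 0.47 and 0.48, edgeR adjusted p = 0.314 and 0.407). The second was lost without layer C replicate 1 as well (log2 fold change 1.34, edgeR adjusted p = 0.06).

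Of the connexins, Gja1 was at a normalized CPM of 132, 148 and 78.3 in layer A, at 7.52, 6.88 and 21.5 in layer B, and at 8.88, 9.70 and 16.2 in layer C. Layers B and C overlapped, and layer B replicate 3 was the highest sample outside layer A. Gja1 was 9.96-fold higher in layer A than B (log2 fold change 3.32, SE 0.463, edgeR adjusted p = 0.000347) and 10.2-fold higher than in layer C (log2 fold change 3.36, SE 0.464, edgeR adjusted p = 0.00158). With layer B replicate 3 left out, the log2 fold change of Gja1 against layer B was 4.10 (edgeR adjusted p = 3.4e-05). Gjb6 had the lowest counts of the 8 genes, between 150 and 1906 reads a sample. Its normalized CPM was 80.2, 59.0 and 47.5 in layer A, 3.37, 3.53 and 14.7 in B, and 9.40, 13.5 and 8.48 in C. Layer A again lay above the rest, with layer B replicate 3 above all of layer C. The log2 fold change was 3.11 (SE 0.513, edgeR adjusted p = 0.00103) against layer B and 2.58 (SE 0.503, edgeR adjusted p = 0.00602) against layer C. The former was 4.22 without layer B replicate 3 (edgeR adjusted p = 2.1e-05), and the latter call was lost without layer C replicate 1 (log2 fold change 2.50, edgeR adjusted p = 0.0501).

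Between layers A and B, 8 of the 8 genes passed, all higher in layer A, where 16.5% of the 56416 transcripts tested passed in either direction and 10.7% were higher in layer A. Between layers A and C, 8 of 8 passed, all higher in layer A, beside 11.3% of all transcripts in either direction and 6.98% higher in layer A. Every layer A sample lay above every layer B sample for all 8, beside 17.2% of all transcripts, and above every layer C sample for all 8, beside 17% of all. Both comparisons use the same layer A samples, so they are not independent. All 8 passed in both at once, with layer A higher, beside 6.42% of all transcripts, and all 8 passed the joint test of the 3 layers, beside 14.3%. The median log2 fold change of the 8 was 3.09 against layer B and 2.55 against layer C, while that of all transcripts was -0.12 and -0.01. Without layer B replicate 3 the median of the 8 against layer B was 3.81. Without layer A replicate 1, layer B replicate 1 or layer B replicate 2 it was 2.84 to 2.90. Under scaling by total counts the median of all transcripts moved to -1.19 and -0.76 and that of the 8 genes to 2.05 and 1.71. The 8 genes stayed higher in layer A under both scalings, with Atp1b2 in both comparisons and Kcnj10 against layer C losing the call.

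Between layers B and C, 0 of the 8 passed in the edgeR test, in which 0% of all transcripts passed. Without adjustment 2 of the 8, Slc1a2 and Kcnj10, were under 0.05 in this test, beside 4.11% of all transcripts, and their adjusted p in edgeR was 0.998 and 0.921. DESeq2 called 130 transcripts in this comparison and none of the 8. The log2 fold change of layer B against layer C was -0.89 (SE 0.336) for Slc1a2 and -0.94 (SE 0.331) for Kcnj10. Every layer B sample lay below every layer C sample for these genes, as for 4.67% of all transcripts. Scaled by total counts, both genes had layer C replicate 2 within the layer B range. With TMM the 6 others overlapped, with log2 fold changes from -0.81 (SE 0.421) for Aqp4 to 0.04 (SE 0.426) for Gja1. The median of the 8 was -0.54, and without layer B replicate 3 it was -1.24. Without that sample 17 of all transcripts passed in edgeR, and 0 of the 8. A difference was thus not detected for the 8 genes, and equality of the layers was not shown.

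**Figure D2:**
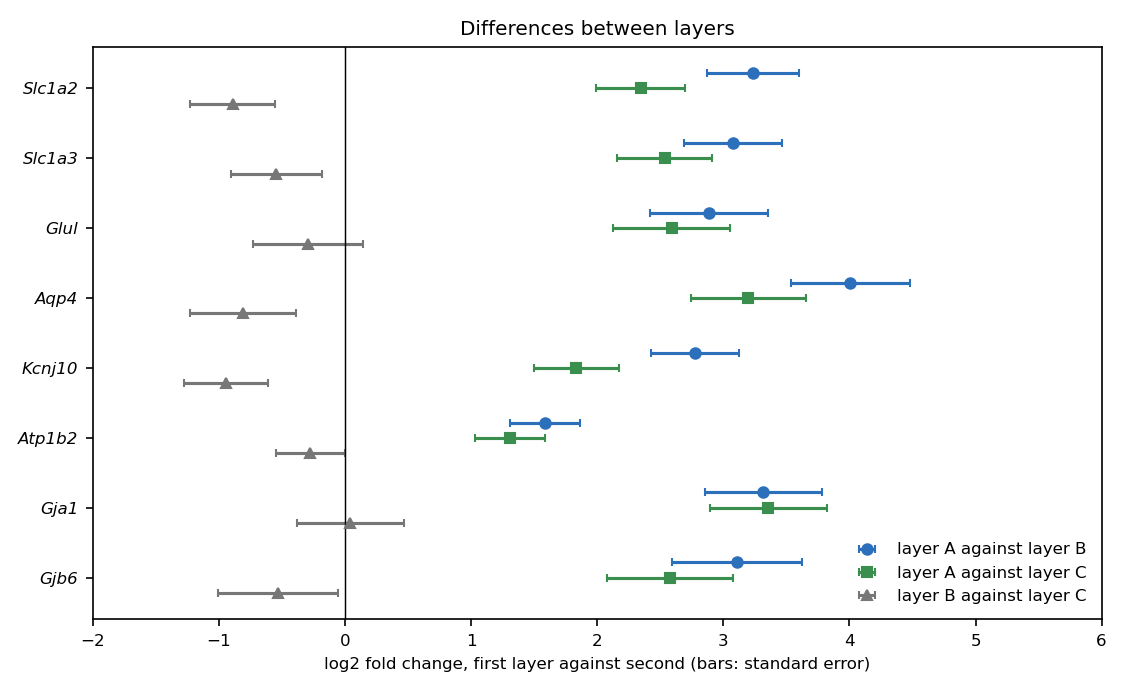
Log2 fold change of each of the 8 genes (horizontal axis, bars give the standard error) for layer A against B (circles), A against C (squares) and B against C (triangles). All circles and squares lie above 0, from 1.31 for Atp1b2 to 4.01 for Aqp4, and the triangles lie between -0.94 and 0.04.

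To compare levels between genes, normalized CPM were divided by transcript length in kilobases. On this scale Slc1a2 was the highest of the 8 in layer A, at 544 ± 212 CPM per kb (SD, n = 3), followed by Glul at 231 ± 48.7 and Slc1a3 at 120 ± 26.2. Atp1b2 was at 74.5 ± 14.3, Aqp4 at 61.5 ± 29.0, Gja1 at 38.9 ± 11.9, Gjb6 at 29.6 ± 7.87 and Kcnj10 at 19.8 ± 6.02. From Atp1b2 downwards, neighbours in this order lay within 1 SD of each other's range, while the 3 highest genes were set apart. In layer B the level per length of Atp1b2 was 24.9 ± 4.84 CPM per kb and those of Aqp4, Gja1, Gjb6 and Kcnj10 lay between 2.88 and 3.90. As a share of the 8 genes' summed level per length, Slc1a2 took 47.6% ± 5.02 in layer A, 42.8% ± 7.48 in B and 49.2% ± 2.33 in C (SD, n = 3 each). The share of Atp1b2 was 6.85% ± 0.939 in layer A, 18.6% ± 3.79 in B and 14.1% ± 2.44 in C. That of Aqp4 was 5.50% ± 1.61, 2.55% ± 0.495 and 3.08% ± 0.688.

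The counted transcripts are not the only ones of these genes. The Slc1a2 transcript had a mean count of 73577, and the next, a protein-coding transcript of 1957 bases, had 3788. For Slc1a3, a transcript with a retained intron had a mean count of 3782 beside 6047 for the counted one. The 5 genes with several transcripts in the deposited counts have 28 others in all. By the same edgeR test all 28 were higher in layer A than B, with log2 fold changes of 1.58 to 3.96. Against layer C all 28 were higher as well (1.30 to 3.07). Of all transcripts 10.7% and 6.98% were higher in layer A in these comparisons. Transcripts of a gene lie at the same locus and may hold the same reads, so the 28 are no independent support. Aqp4, Kcnj10 and Gja1 have a single transcript each in the deposited counts.

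Whether the 8 genes changed by equal amounts was asked within each sample, from ratios of gene pairs (normalized CPM plus 0.5), in which the scaling of the library nearly cancels. The test was an exact permutation test, two-sided, over all 1680 assignments of the 9 samples to 3 layers, with adjustment over 7 pairs. Its smallest possible p was 0.00357, and for a single pair of layers, 3 samples against 3, the smallest is 0.1. Of the 7 pairs, 2 passed, among them Slc1a2 to Slc1a1.

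The ratio of Slc1a2 to Slc1a1, the glutamate transporter EAAC1 of neurons, was 437, 218 and 171 in layer A. It was 10.6, 12.6 and 15.4 in layer B and 16.0, 13.9 and 32.6 in layer C. All layer A samples lay above all others. The mean log2 ratio was 4.32 higher in layer A than B, at 7.99 ± 0.703, 3.67 ± 0.272 and 4.27 ± 0.659 (SD, n = 3 each, exact permutation p = 0.00714, adjusted p = 0.0375). Slc1a1 was lower in layer A, with a log2 fold change of -1.14 (SE 0.333, edgeR adjusted p = 0.0286) against layer B. This call for Slc1a1 was lost without layer A replicate 1 or 3, layer B replicate 1 or 2, or layer C replicate 1 (edgeR adjusted p = 0.051 to 0.116).

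Aqp4 to Kcnj10, the pair of endfoot channels, did not pass after adjustment. The ratio was 3.44, 1.98 and 3.22 in layer A, 1.09, 0.938 and 1.47 in B and 1.07, 1.38 and 0.922 in C. All layer A samples lay above the others (exact permutation p = 0.025, adjusted p = 0.0583). The remaining pairs overlapped between layers: Slc1a2 to Slc1a3 (adjusted p = 0.7 by exact permutation), Glul to Slc1a2 (0.786), Gja1 to Gjb6 (0.294) and Kcnj10 to Kcnj16 (0.7). The ratio of Slc1a2 to Slc1a3 was 9.30 to 14.0 in layer A, 8.54 to 14.8 in B and 13.7 to 15.4 in C. The call for Slc1a2 to Slc1a1 depended on single libraries. It was lost without layer A replicate 3 (adjusted p = 0.05), layer B replicate 1 (0.075), layer B replicate 2 (0.075) or layer C replicate 3 (0.0583), all by exact permutation.

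**Figure D3:**
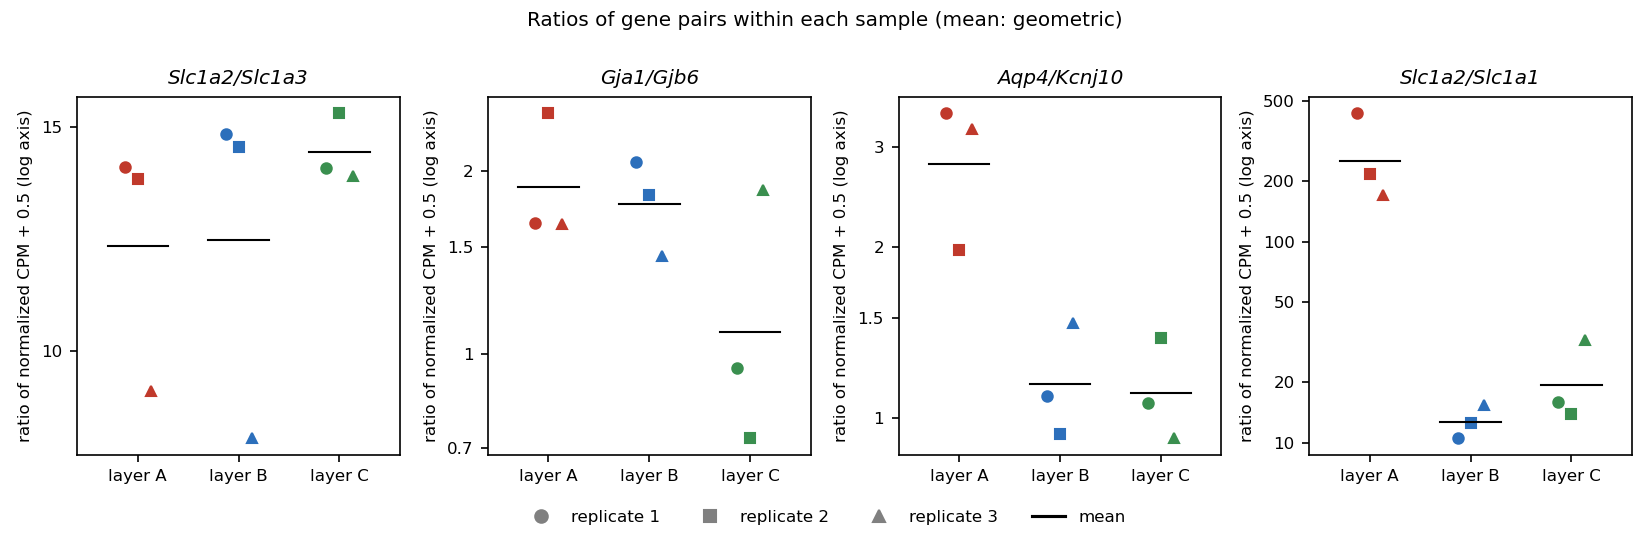
Ratio of the normalized CPM (plus 0.5) of gene pairs within each sample (log axes, a different range in each panel), with the geometric mean of each layer as a bar. The ratio of Slc1a2 to Slc1a1 is higher in all 3 layer A samples than in the 6 others, while Slc1a2 to Slc1a3 and Gja1 to Gjb6 overlap.

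The 8 genes were compared with 10 other astrocyte markers, among them Aldoc, Gpr37l1 and Gfap. In bulk tissue this comparison assigns no cell type to the 8 genes. All 10 were higher in layer A in both comparisons, with median log2 fold changes of 2.71 and 2.23, beside 10.7% and 6.98% of all transcripts. Their summed level was 742 to 812 normalized CPM in layer A, 68.9 to 202 in B and 115 to 238 in C, and none was at 0 in any sample. Set against the mean log2 level of these markers in the same sample, 0 of the 8 genes differed among layers after adjustment over the 8 tests (exact permutation test). At an unadjusted p under 0.05 there was 1, Atp1b2 (exact permutation p = 0.0179, adjusted p = 0.143). Its log2 level relative to the markers was 2.59 ± 0.263 in layer A, 3.90 ± 0.482 in B and 3.72 ± 0.427 in C (SD, n = 3 each), without overlap between layer A and the others. For Gja1 (exact permutation p = 0.05, adjusted p = 0.2) the relative log2 level was 1.34, 0.81 and 0.44 in layers A, B and C, and without layer A replicate 3 it passed (exact permutation p = 0.00357, adjusted p = 0.0286). For Slc1a2 it was 7.02, 6.73 and 7.16 (exact permutation p = 0.543, adjusted p = 0.571).

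Markers of other cells moved with layer A too, and their part in the values of the 8 genes was not tested. Of all transcripts, 10.7% were higher and 5.83% lower in layer A than B, and 6.98% and 4.35% against layer C. Of 6 endothelial markers, 6 were higher in layer A than B and 5 than in layer C, with a summed level of 108 to 134 normalized CPM in layer A, 7.48 to 19.9 in B and 15.7 to 24.7 in C. All 6 mural cell markers were higher in both comparisons (summed level 199 to 346, 16.1 to 55.9 and 44.4 to 65.2). All 7 markers of meningeal fibroblasts were higher in both, at 67.3 to 153, 1.34 to 7.35 and 4.17 to 5.57. Of 6 microglial markers 5 were higher in both, at 107 to 140, 17.2 to 46.5 and 38.8 to 54.9. Of 8 neuronal markers 5 were lower in layer A than B and 2 higher (4 lower and 1 higher against C). Their summed level overlapped, at 3535 to 5314, 3013 to 6448 and 3322 to 4663. In layer A the largest part of that sum was Camk2a, 1 of the 2 higher, at 2126.5 to 4131.2, against 740.1 to 1324.8 elsewhere. Snap25, 1 of the 5 lower, was at 408.55 to 853.06 in layer A and 1351.4 to 4302.5 elsewhere. Of 8 oligodendrocyte markers 1 was higher in layer A than B and 0 than in layer C, at 163 to 268, 43.6 to 218 and 133 to 486. Of all these markers 1, a mural one, was at 0 in a sample. Scaled by total counts, the summed astrocyte, endothelial, mural and meningeal levels of layer A still lay above all other samples and the microglial level overlapped with layer C, while the neuronal level lay below all of layer B.

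The 8 genes work with others, of which 49 were listed in 4 groups and 45 could be tested. Between layers A and B, 20 of the 45 were higher and 6 lower in layer A, beside 10.7% and 5.83% of all transcripts, and the median log2 fold change was 0.87. For layer A against C, 17 were higher and 6 lower, beside 6.98% and 4.35%, with a median of 0.78. With TMM after removal of the mitochondrial transcripts, 21 were higher and 6 lower against layer B, and 17 and 7 against layer C. Under scaling by total counts the split turned, to 8 higher and 12 lower against layer B (40% higher in place of 76.9%) and to 3 higher and 7 lower against layer C (30% in place of 73.9%). Among those still higher against layer B were Slc7a11, Slc38a5, Mlc1, Hepacam, Kcnj16, Utrn and Gjb2, and the values of Atp1b3, Dmd, Dag1 and Agrn, which passed under neither scaling, were then below 0. Between layers B and C, 0 of the 45 passed in the edgeR test and none with DESeq2, and 5 were under an unadjusted p of 0.05, beside 4.11% of all transcripts. The 23 calls against layer C came to 11 without layer A replicate 1, 13 without layer A replicate 2, 8 without layer C replicate 1 and 15 without layer C replicate 2.

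In the glutamate and glutamine cycle, 5 of 13 genes were higher and 3 lower in layer A than B, with a median log2 fold change of -0.26. Of all transcripts 10.7% were higher and 5.83% lower. The cystine-glutamate exchanger Slc7a11 was at a normalized CPM of 157, 124 and 75.4 in layer A and 5.63 to 14.5 elsewhere, a log2 fold change of 3.95 (SE 0.39, edgeR adjusted p = 0.000118) against layer B. Slc38a3, which exports glutamine from astrocytes, was higher by 2.37 on the log2 scale (SE 0.377, edgeR adjusted p = 0.00083), and Glud1, a mitochondrial enzyme of glutamate oxidation, by 1.89 (SE 0.413, edgeR adjusted p = 0.00586). Got1, an aspartate aminotransferase, was lower in layer A (-1.58, SE 0.362, edgeR adjusted p = 0.00775). The vesicular transporter Slc17a7 had a value of -1.10 (SE 0.362), just outside the threshold (edgeR adjusted p = 0.0504). Slc17a7 passed without layer B replicate 3 (-1.27, edgeR adjusted p = 0.0181) or layer C replicate 2 (-1.09, 0.0433), and Glud1 was at 2.68 without the former. Against layer C, 5 of the 13 were higher and 4 lower, beside 6.98% and 4.35% of all transcripts, with a median of -0.34. Under scaling by total counts the group turned, to 2 higher and 7 lower against layer B (median -1.39) and to 1 higher and 4 lower against layer C (median -1.19). Slc38a3 and Glud1 then no longer passed against layer B (log2 fold changes 1.38 and 0.86, edgeR adjusted p = 0.0743 and 0.121).

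In the group for potassium, sodium and chloride, 6 of 15 genes were higher and 3 lower in layer A than B, and 5 higher and 2 lower against layer C. Scaled by total counts, these became 4 higher and 4 lower, and 1 higher and 3 lower. With TMM, 10.7% of all transcripts were higher and 5.83% lower against layer B, and 6.98% and 4.35% against layer C. The beta subunits of the sodium-potassium pump differed among themselves. Beside Atp1b2, which was higher, Atp1b1 was at a normalized CPM of 151, 120 and 258 in layer A and 358, 280 and 994 in layer B, below without overlap (log2 fold change -1.62, SE 0.432, edgeR adjusted p = 0.0173). The call was lost without layer B replicate 3 (-0.80, edgeR adjusted p = 0.0946), layer A replicate 1 (-1.52, 0.0831) or layer A replicate 2 (-1.40, 0.0903). Against layer C its value was -1.38 (edgeR adjusted p = 0.0502). Atp1b3 did not pass (log2 fold change 0.66, edgeR adjusted p = 0.398), and its layer B range of 8.20 to 37.8 took in all of layer A through layer B replicate 3. Without that sample Atp1b3 was higher in layer A (log2 fold change 1.75, edgeR adjusted p = 0.00218).

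**Figure D4:**
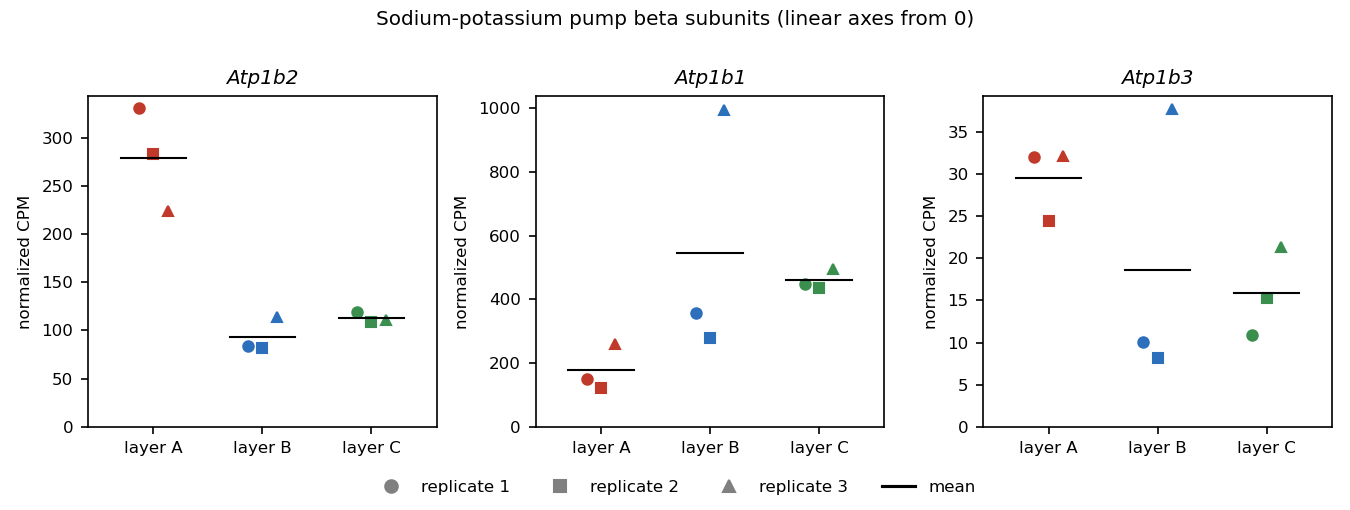
Normalized CPM (linear axes from 0, a different range in each panel) of the beta subunits Atp1b2, Atp1b1 and Atp1b3 of the sodium-potassium pump in the 9 samples, with the layer mean as a bar. The layer A samples of Atp1b2 lie above all others, those of Atp1b1 lie below all others, and those of Atp1b3 overlap with layer B through replicate 3.

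Kcnj16 encodes Kir5.1, the channel subunit that pairs with Kir4.1. It was at a normalized CPM of 99.5, 33.4 and 24.7 in layer A, 5.01, 5.01 and 19.3 in B and 17.1, 31.9 and 11.3 in C. It was higher in layer A than B (log2 fold change 2.42, SE 0.611, edgeR adjusted p = 0.0129) and overlapped with layer C (1.39, SE 0.591, edgeR adjusted p = 0.157). Mlc1 and Hepacam, which encode partner membrane proteins of the endfoot and of astrocyte contacts, were higher by 3.07 (SE 0.485, edgeR adjusted p = 0.000812) and 2.80 (SE 0.399, edgeR adjusted p = 0.000399) against layer B. The sodium-bicarbonate cotransporter Slc4a4 was higher by 2.01 (SE 0.32, edgeR adjusted p = 0.000861), a call lost under scaling by total counts (0.86, edgeR adjusted p = 0.0898). The call of Kcnj16 was lost without layer A replicate 1 (1.57, edgeR adjusted p = 0.106). Without layer B replicate 3 the values of Kcnj16, Mlc1 and Hepacam against layer B were 3.44, 3.94 and 3.42.

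Aqp4 is held at the endfoot membrane by a complex of dystrophin, dystrobrevin, dystroglycan and syntrophins. Of 8 tested genes of this complex and of water transport, 4 were higher in layer A and 0 lower in both comparisons, with median log2 fold changes of 1.40 and 1.39, beside 10.7% and 6.98% of all transcripts that were higher. Under scaling by total counts 1 was higher against layer B, which was Utrn, and 0 against layer C, with medians of 0.33 and 0.56. Utrn, encoding utrophin, was higher by 2.47 (SE 0.366, edgeR adjusted p = 0.000529) against layer B, Dtna, encoding alpha-dystrobrevin, by 1.58 (SE 0.283, edgeR adjusted p = 0.00175), and Sntb1 by 2.85 (SE 0.658, edgeR adjusted p = 0.008). Sntb1 had few reads, with a normalized CPM of 0.997 to 3.39 in layer A and 0.104 to 0.359 in layer B. Its call was lost without layer A replicate 1 (2.14, edgeR adjusted p = 0.0631). Dmd, encoding dystrophin, had 61.9 to 119 in layer A, 59.8 to 73.2 in B and 38.8 to 103 in C and did not pass (log2 fold change 0.34, edgeR adjusted p = 0.585). This value is of 1 of 14 Dmd transcripts in the deposited counts, that of 79 exons with a mean count of 2498. The next had a mean count of 1331, and the value does not speak for the other forms. Dag1 had a value of 0.37 (edgeR adjusted p = 0.519) and Agrn of 0.02 (edgeR adjusted p = 0.973).

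Of 9 other gap junction and pannexin genes tested, 5 were higher and 0 lower in layer A than B, and 3 higher and 0 lower against layer C. The share of all transcripts that were higher was 10.7% and 6.98%. Gjb2, connexin 26, had the largest difference of all partner genes. It was at a normalized CPM of 14.9, 5.48 and 8.80 in layer A, against 0, 0.185 and 0.458 in layer B and 0.417, 0.0638 and 0.443 in layer C. The fitted log2 fold change was 5.47 (SE 0.836, edgeR adjusted p = 0.000653) against layer B and 4.80 (SE 0.804, edgeR adjusted p = 0.003) against layer C. Without layer B replicate 3 the former was 6.73, against one sample at 0 and one at 0.185. Gjc3 and Tjp1 were higher in layer A than B (log2 fold changes 2.06 and 1.53, edgeR adjusted p = 0.00702 and 0.0086) and did not pass against layer C (0.78 and 1.03, edgeR adjusted p = 0.318 and 0.0765). Both calls against layer B were lost under scaling by total counts (0.98 and 0.38, edgeR adjusted p = 0.103 and 0.413), where the group had 1 higher and 1 lower. That of Tjp1 was lost without layer A replicate 1 as well (1.13, edgeR adjusted p = 0.053), and Gjc3 was at 2.77 without layer B replicate 3.

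**Figure D5:**
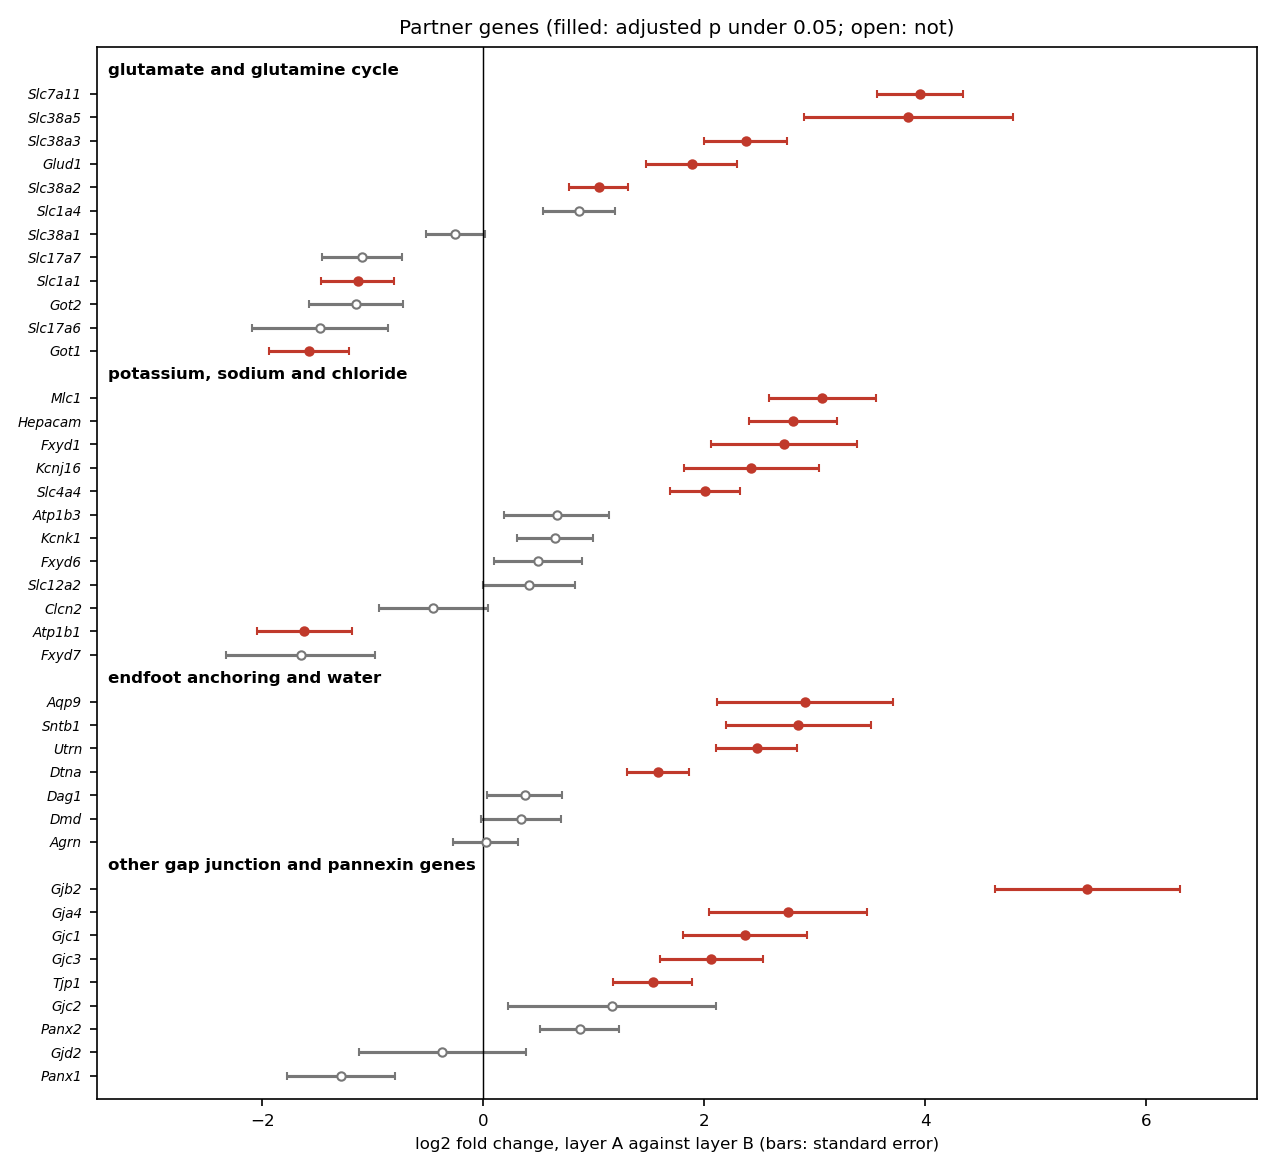
Log2 fold change of layer A against layer B (horizontal axis, bars give the standard error) for tested partner genes in their 4 groups, with filled points for genes that passed the edgeR test. Filled points run from -1.62 for Atp1b1 to 5.47 for Gjb2, and those below 0 are in the groups of the glutamate and glutamine cycle and of potassium, sodium and chloride.

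Among the 8 genes, Pearson's r of the log2 levels over the 9 samples ran from 0.938 (Kcnj10 with Gja1) to 0.993 (Slc1a3 with Glul). The samples share their layers, and the 8 genes share each sample's library and scaling, so this describes a common pattern and is no test. The genes most like the mean pattern of the 8, among 9244 genes with a mean count of at least 100, were Tlcd1 (r = 0.999), Ctso (0.996), Trim56 (0.995), Megf10 (0.995) and Selenop (0.995), over the same 9 samples. Megf10 encodes a phagocytic receptor of astrocytes and Selenop a secreted selenium carrier. Selenop was at a normalized CPM of 251, 172 and 142 in layer A, 18.04, 18.06 and 51.9 in B and 34.7, 44.6 and 46.7 in C, with layer B replicate 3 again the highest of its layer.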

How the data were processed

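RNA of 9 laser-captured samples was measured, 3 of each layer. Per the labels and the study's methods, RNA was amplified with the Ovation system and strand non-specific libraries were sequenced as paired-end reads, aligned to mm10 with Bowtie. The submitters' processing notes also name bcl2fastq 1.8.4 and HTSeq 0.5.3. The authors deposited raw counts per Ensembl transcript, 95533 in each sample, without normalization, and how reads over several transcripts were counted is not given in the sources used here. Without strand, reads of overlapping genes cannot be told apart, and without molecular identifiers amplified reads are not independent molecules.

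Transcripts were joined to GENCODE M21 of GRCm38, the assembly of mm10, in which 82807 (86.7%) were found. A transcript was tested if 3 or more samples had 10 or more counts (56416 transcripts). Scaling was by TMM and testing by the quasi-likelihood F-test of edgeR 4.0.16 (R 4.3.3), with all 9 samples in one fit, Benjamini-Hochberg adjustment over all transcripts and a threshold of 0.05. The SE was taken from the F statistic. A floor of 3 counts corresponded to 0.0256 to 0.254 normalized CPM, for counting error only. The 8 genes were above it in every sample. Ratios used a pseudocount of 0.5 CPM and exact permutation tests. DESeq2 1.42.0, other scalings, filters, sums by gene, a replicate block and leaving out each sample were alternatives. The scripts were tested on simulated counts. Replicates differed by more than sampling noise. The 8 genes, the pairs and the lists of partner and marker genes were chosen with earlier results of these data known, and so were the tests. All 8 genes are described. Partner genes were named with preference for known binding partners and high counts, and genes of like pattern by the 5 highest correlations. Some partner genes and a pair ratio that entered these tests and counts are not reported here.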

Additional observations from a re-analysis of the deposited data

How the results depend on the processing

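The 8 genes were recomputed under each alternative, 456 values in all. Of these, 444 kept their direction and their side of the threshold, 5 lost the call and 7 changed sign. All 7 that changed sign were differences between layers B and C that passed no test. They were Glul without layer B replicate 1 (0.0135), Atp1b2 with total counts (0.0039), and Gja1 with counts summed by gene (-0.0173), with the replicate block (-0.0356), without layer B replicate 3 (-0.74), without layer C replicate 1 (-0.15) and without layer C replicate 2 (-0.07), all log2 fold changes. Over the samples left out one at a time, the values of this comparison ran from -1.3 to 0.0135 for Glul and from -0.743 to 0.341 for Gja1. The 5 lost calls were Atp1b2 against both layers (0.47 and 0.48) and Kcnj10 against layer C (0.98) with total counts, and Atp1b2 (1.34) and Gjb6 (2.50) against layer C without layer C replicate 1. Leaving out one sample at a time, 8 of the 8 passed between layers A and B, 6 to 8 between layers A and C and 0 between layers B and C. With total counts, 10.8% of all calls between layers A and B were higher in layer A, against 64.7% with TMM, and 9.09% against 61.6% between layers A and C. With TMM after removal of the mitochondrial transcripts these shares were 67.7% and 63.4%. The median log2 fold change of the 8 genes was then 3.14 and 2.58. The cause was not tested.

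With the replicate block, 8, 8 and 0 of the 8 genes passed, and 9184, 6384 and 0 of all transcripts. The block changed no call of the 8 genes. The replicate numbers share no stated source: of 9 same-numbered pairs across layers, 5 had a correlation of deviations over 0.1, in a range of -0.22 to 0.27, and not every sample correlated best with its own number. Of the pair ratios 2 passed, and 0 passed with the replicate block, in which only 216 assignments exist. With the block Slc1a2 to Slc1a1 had p = 0.0278 by exact permutation, the smallest value possible there, and an adjusted p of 0.194. A pair could thus not pass unless several others also reached that value, so the 0 decides nothing about the ratios. Leaving out one sample gave 0 to 2 pairs and 0 to 1 gene that differed from the astrocyte markers, the latter without layer A replicate 3. Partner genes passing against layer C came to 10 with total counts and to 8 to 28 without one sample, beside 23. Against layer B they came to 19 to 31 without one sample, beside 26. Depth limits the genes of lowest count, such as Gjb2 in layers B and C. Taking the highest protein-coding transcript of each gene, an alternative chosen after seeing the data, changed no call of the 8 genes, and Atp1b2 then had log2 fold changes of 1.58 and 1.30 against layers B and C.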
